A study of Homo sapiens with 24 samples.

Results

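The 24 h response to RMC-7977 was compared between 2 human acute myeloid leukaemia cell lines, Molm-14 and OCI-AML3 (written OCIAML-3 in the labels). RMC-7977 is an inhibitor of the active, GTP-bound state of RAS proteins. For every gene, the log2 fold change of drug against DMSO, the solvent, in Molm-14 was subtracted from that in OCI-AML3, so a positive difference means a higher fold change in OCI-AML3. The labels give the genotype of Molm-14 as FLT3-ITD, an internal tandem duplication in the receptor kinase FLT3, and that of OCI-AML3 as NRAS Q61L, an activating substitution in a RAS gene. Both lines grew in RPMI medium with serum, and poly(A) RNA was sequenced after DMSO or after 24 h of 25 nM RMC-7977. The contrast rests on 15 of the 23 libraries in the table, and all 13033 gene symbols in it were tested. Molm-14 had 4 DMSO and 4 drug libraries, and OCI-AML3 had 4 DMSO and 3 drug libraries (replicates 1, 2 and 4; the library labelled replicate 3 was not analysed here). The labels state no time for DMSO. Each genotype is represented by a single line, so line and genotype cannot be told apart, and the labels do not say whether replicate libraries are separate cultures. The p-values therefore reflect the spread among libraries alone, and that spread may be technical.

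RAS proteins pass signals from growth factor receptors such as FLT3 to the kinases RAF, MEK and ERK. Active ERK raises the transcription of early genes and of its own inhibitors, the dual-specificity phosphatases (DUSP) and the Sprouty and SPRED proteins, so the RNA of these inhibitors is widely read as a gauge of ERK output. When the pathway is blocked, loss of this negative feedback can let signalling resume. Downstream of ERK, cyclin D1 and MYC drive entry into the cell cycle, ribosome production and much of anabolic metabolism.

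Effective library sizes, recovered from the spacing of low values, ran from 15.4 to 22.4 M reads (median 18.7 M) over the 15 libraries. All 16 markers of myeloid cells on a list drawn up for this check were in the table. Their summed level was 1397 to 1458 CPM (read counts scaled to library size) in Molm-14 DMSO and 2367 to 2439 at 24 h, and 2669 to 2802 CPM in OCI-AML3 DMSO and 7846 to 8208 at 24 h. Of 15 lymphoid, 16 erythroid and platelet, and 15 epithelial and stromal markers, 5, 4 and 3 were in the table. The defining genes CD3E, HBB and EPCAM were not in the table used here. The summed level of the 5 lymphoid markers went from 58.18 to 61.64 CPM in DMSO to 45.41 to 51.8 CPM at 24 h in Molm-14 and from 11.2 to 12.31 CPM to 5.139 to 8.902 CPM in OCI-AML3. The summed level of the 3 epithelial and stromal markers went from 87.3 to 89.58 CPM to 135.5 to 144.2 CPM in Molm-14 and from 32.36 to 36.41 CPM to 76.57 to 79.78 CPM in OCI-AML3, that of the 4 erythroid and platelet markers from 423.1 to 441.3 CPM to 315 to 336.2 CPM and from 178.1 to 188 CPM to 77.43 to 85.25 CPM. Of the epithelial and stromal markers, KRT18 and COL1A2 had fewer than 4 reads over some group, and the remaining marker was PECAM1. Of the lymphoid markers, TRAC and EBF1 had fewer than 4 reads over some group. The median fold change of the 4 erythroid and platelet markers was 0.24 in Molm-14 and 0.97 in OCI-AML3. Their falling sums thus do not give the direction of the typical member. TFRC was the only 1 of these 4 called in the difference between the lines, and it was lower in OCI-AML3. The part of all these markers in the results was not tested. In bulk RNA, fewer cells of a kind and less RNA per cell cannot be told apart.

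The lines differed widely after 24 h. A gene was called when limma's moderated test gave an adjusted p below 0.05 and the difference was at least 1 on the log2 scale. By this rule 2325 of 13033 genes (17.8%) differed: 1054 (8.09%) had a higher fold change in OCI-AML3 and 1271 (9.75%) a lower one. The median difference over all genes was -0.05, and 237 higher and 308 lower genes differed by at least 2. Single-library responses (each drug library against the DMSO mean of its line) did not overlap between the lines in 2320 of the 2325 called genes and in 9648 of all 13033 (74.0%).

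The commonest classes were genes that changed in OCI-AML3 without a call in Molm-14. Of the 1271 lower genes, 560 fell in OCI-AML3 without a call in Molm-14 and 293 fell in both lines but further in OCI-AML3. Another 198 rose in Molm-14 without a call in OCI-AML3, 54 rose in both but less in OCI-AML3, 30 rose in Molm-14 and fell in OCI-AML3, and 136 were called in neither line. Of the 1054 higher genes, 668 rose in OCI-AML3 without a call in Molm-14, 205 rose in both, 50 fell in Molm-14 without a call in OCI-AML3, 10 fell in Molm-14 and rose in OCI-AML3, 5 fell in both and 116 were called in neither line. The opposite groups of 30 and 10 became 11 and 4 on the log2(CPM + 1) scale, and the 259 genes that rose in both lines became 124 there. Against its own DMSO each line had 4620 (OCI-AML3, 35.4%) and 2337 (Molm-14, 17.9%) called genes. Molm-14 had fewer than 4 reads in both of its groups in 95 of the higher and 56 of the lower genes, and OCI-AML3 in 7 and 12, so the difference in these genes is the response of the other line alone.

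**Figure D1:**
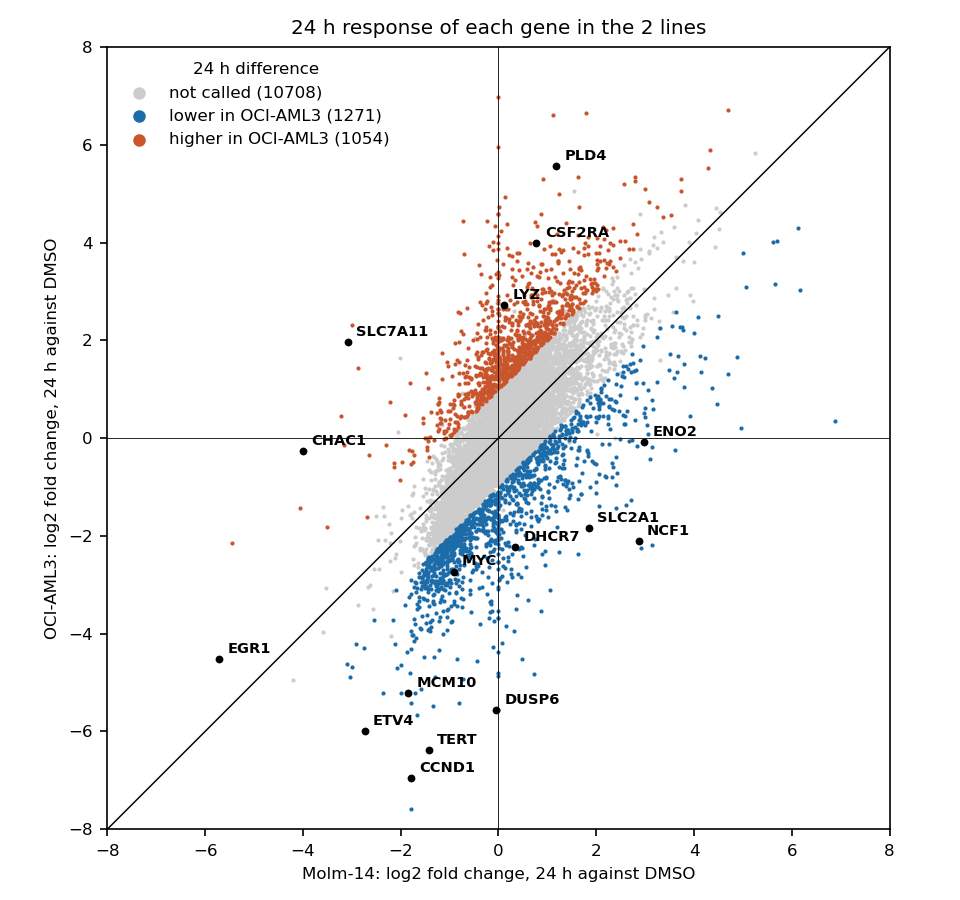
Log2 fold change of each of 13033 genes after 24 h of RMC-7977 in Molm-14 (horizontal axis) and OCI-AML3 (vertical axis); the diagonal marks equal responses, orange points are the 1054 genes higher and blue points the 1271 genes lower in OCI-AML3, and black points are named genes. SLC7A11 and SLC2A1 lie in opposite off-diagonal quadrants, and DUSP6 lies on the line of no change in Molm-14 and at -5.56 in OCI-AML3.

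ERK output genes fell further in OCI-AML3, and several were back at their DMSO level in Molm-14. Of 19 measured genes of ERK output and feedback, 15 were lower in OCI-AML3 and 2 higher, with a median difference of -1.69 beside -0.05 over all genes. The median fold change was -1.34 in Molm-14, where 10 of 19 fell (6.57% of all genes fell), and -4.03 in OCI-AML3, where 18 fell (17.1% of all). DUSP6 (chr12:89347232-89353271, minus strand, GRCh38), the phosphatase that inactivates ERK, stood at 47, 43.6, 42.9 and 42.1 CPM in Molm-14 DMSO and at 40.2, 42.4, 45 and 42.1 CPM after 24 h of drug. In OCI-AML3 it stood at 9.86, 12, 13.2 and 12.3 CPM in DMSO and at 0.124, 0.0534 and 0.332 CPM at 24 h. The Molm-14 groups overlapped, whereas every treated OCI-AML3 library lay far below every DMSO library. The difference was -5.51 ± 0.29 (SE; adjusted p = 5e-16). After 2 h DUSP6 had fallen in both lines, by 3.96 in Molm-14 and 5.31 in OCI-AML3 (2.98% and 3.35% of all genes fell at 2 h), so its level in Molm-14 was low at 2 h and back at the DMSO level at 24 h.

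CCND1 (chr11:69641087-69654474, plus strand), which encodes cyclin D1, stood at 31.8 to 35 CPM in the 4 Molm-14 DMSO libraries and at 10.1, 8.33, 10 and 9.59 CPM at 24 h. In OCI-AML3 it went from 63.9 to 65.8 CPM to 0.573, 0.277 and 0.435 CPM. It fell in both lines, by 1.79 in Molm-14 and 6.96 in OCI-AML3 (difference -5.17 ± 0.19, adjusted p = 6.7e-20), and its level in OCI-AML3 changed places from above Molm-14 in DMSO to far below it. ETV4 (chr17:43527844-43579620, minus strand), an ETS transcription factor induced by ERK, fell to 3.23, 5.08, 5.04 and 4.81 CPM in Molm-14 and to 0.223, 0.0534 and 0.442 CPM in OCI-AML3, from 28.9 to 32.5 and 17.4 to 21.4 CPM (difference -3.26 ± 0.34, adjusted p = 3.6e-08). The phosphatase DUSP2 (-4.15 ± 0.18), the AP-1 factor FOSL1 (-2.53 ± 0.23) and ETV5 (-2.25 ± 0.22) likewise fell in both lines and further in OCI-AML3. SPRED2 and PHLDA1 resembled DUSP6: their Molm-14 fold changes were 0.00 and -0.06, and they fell by 1.85 and 1.75 in OCI-AML3. The Sprouty genes SPRY2 (difference -1.58 ± 0.11) and SPRY4 (-1.52 ± 0.28) were also lower in OCI-AML3.

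EGR1 (chr5:138465490-138469315, plus strand), an immediate early transcription factor, did not follow this order. It stayed down in both lines, at 1.2, 1.34, 0.618 and 0.696 CPM in Molm-14 and 2.51, 1.18 and 1.6 CPM in OCI-AML3, from 50.7 to 55.2 and 40.7 to 42.1 CPM in DMSO. Its difference was 1.19 ± 0.29 (adjusted p = 0.00075), the opposite sign to DUSP6. The call ended on the log2(CPM + 1) scale (0.86) and without replicate 1 of OCI-AML3 at 24 h (0.92). The second higher member was SPRED3 (1.19 ± 0.36). The count of 2 higher members fell to 0 on the log2(CPM + 1) scale and to 1 without replicate 1 or 4 of OCI-AML3 at 24 h or replicate 3 of OCI-AML3 DMSO.

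At 2 h the ERK output list had no common direction between the lines. The 2 h difference between the lines, which shares its DMSO libraries with the 24 h difference, called 735 genes (5.64%), 2.12% higher and 3.52% lower, and among the 19 ERK output genes 4 were lower and 2 higher in OCI-AML3, with a median of -0.03. The change of the difference from 2 to 24 h, which uses no DMSO library, called 1863 genes (14.3%), 873 (6.7%) in the higher and 990 (7.6%) in the lower direction. It was lower for 13 of the 19 ERK output genes, with a median of -1.46. For ETV4 the 2 h difference was 0.21 ± 0.33 and the later change -3.47 ± 0.34 (adjusted p = 1.7e-08). For DUSP6 these values were -1.35 ± 0.28 and -4.17 ± 0.29 (adjusted p = 3.8e-13). EGR1 showed the reverse order, with a 2 h difference of 1.75 ± 0.28 and a later change of -0.56 ± 0.29 (adjusted p = 0.095).

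**Figure D2:**
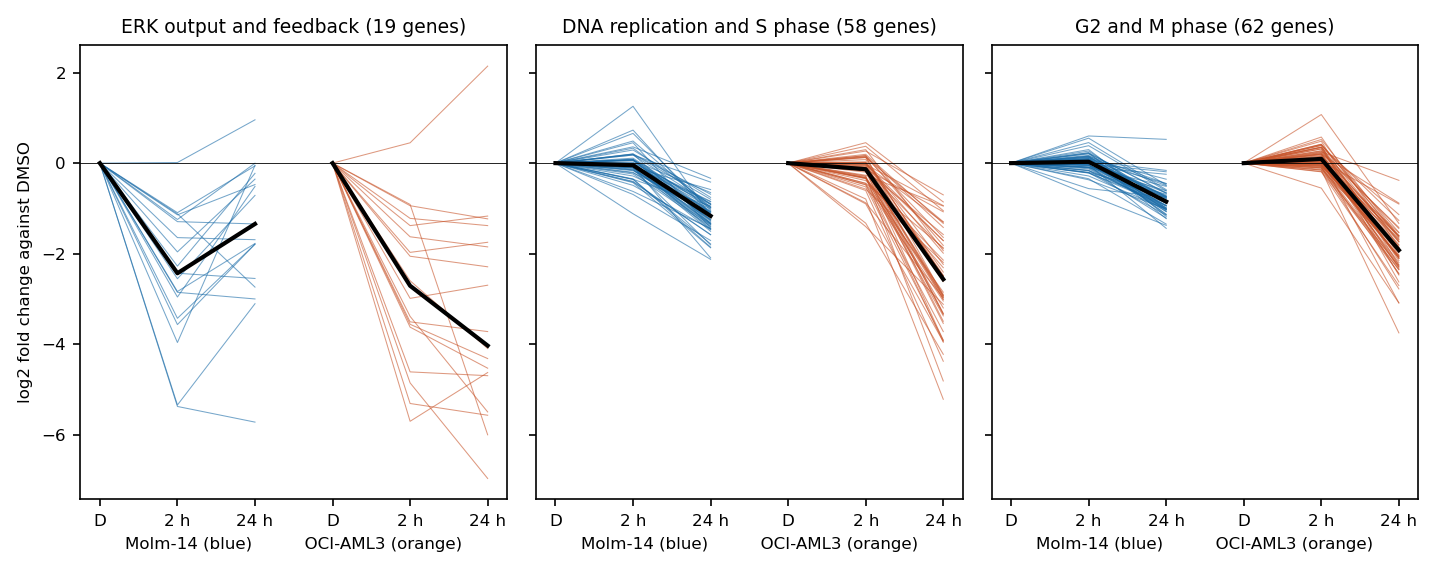
Log2 fold change against DMSO (D) after 2 and 24 h for each gene of 3 lists, with thin lines for genes and a thick black line for the median, Molm-14 in blue and OCI-AML3 in orange. The medians of ERK output and feedback part after 2 h to -1.34 and -4.03, while both cell cycle lists stay near 0 at 2 h and fall later, further in OCI-AML3.

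The pathway upstream of ERK differed little at the RNA level. Of 35 genes of the RAS and MAPK pathway, 3 were higher (8.09% of all genes) and none lower (9.75% of all) in OCI-AML3 (median -0.15). The higher count was thus near the share over all genes. The adaptor GAB2 rose in OCI-AML3 from 8.38 ± 0.858 to 65.9 ± 3.98 CPM (SD, n = 4 and n = 3) and had a difference of 2.06 ± 0.10 (adjusted p = 3.8e-17). The calls of SOS1, a RAS exchange factor, and GAB1 (1.02 and 1.04) ended without replicate 1 of OCI-AML3 DMSO or replicate 4 of OCI-AML3 at 24 h. The call of SOS1 ended as well without replicate 3 of Molm-14 DMSO and on the log2(CPM + 1) scale (0.99). That of GAB1 ended without replicate 2 or 3 of Molm-14 at 24 h and with voom (0.87, adjusted p = 0.16). NRAS itself had a difference of -0.19 ± 0.07 and HRAS of -0.61 ± 0.10, both below the size limit. Among 32 growth factor and cytokine receptors 6 were higher (8.09% of all genes) and 3 lower (9.75% of all), with a median of 0.29. The lower count was thus near the share over all genes. Of the higher receptors, MERTK had fewer than 4 reads over some group.

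CSF2RA, the alpha chain of the GM-CSF receptor, stood at 20.9 to 22.3 CPM in Molm-14 DMSO and 35.1 to 39 CPM at 24 h. In OCI-AML3 it rose from 1.63, 1.46, 1.38 and 1.24 CPM to 25.3, 25.1 and 22.5 CPM, all above the DMSO range (difference 3.22 ± 0.11, adjusted p = 2.3e-20). The receptor kinase AXL (chr19:41219203-41261766, plus strand) was at 2.05 to 3.65 CPM in Molm-14 DMSO and 3.11 to 3.83 CPM at 24 h, ranges that overlap, and rose in OCI-AML3 from 0.415 to 0.714 CPM to 4.4, 4.82 and 5.34 CPM (difference 2.75 ± 0.24, adjusted p = 4.6e-11). At 2 h AXL stood at 8.35, 6.48, 8.51 and 6.91 CPM in Molm-14 and at 1.19 to 1.36 CPM in OCI-AML3, above every DMSO library of each line. FGFR1 (2.87 ± 0.10) and ERBB2 (1.61 ± 0.23) also rose in OCI-AML3 at 24 h. FLT3 itself rose in OCI-AML3 by 1.49 and had a fold change of 0.60 in Molm-14, with a difference of 0.89 ± 0.06 that stayed under the size limit. Lower in OCI-AML3 were IL7R, the interleukin-7 receptor (-4.28 ± 0.20), which fell there and was at 0.08 in Molm-14, and TNFRSF1B, a receptor for TNF (-2.39 ± 0.09), which rose by 3.0 in Molm-14.

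**Figure D3:**
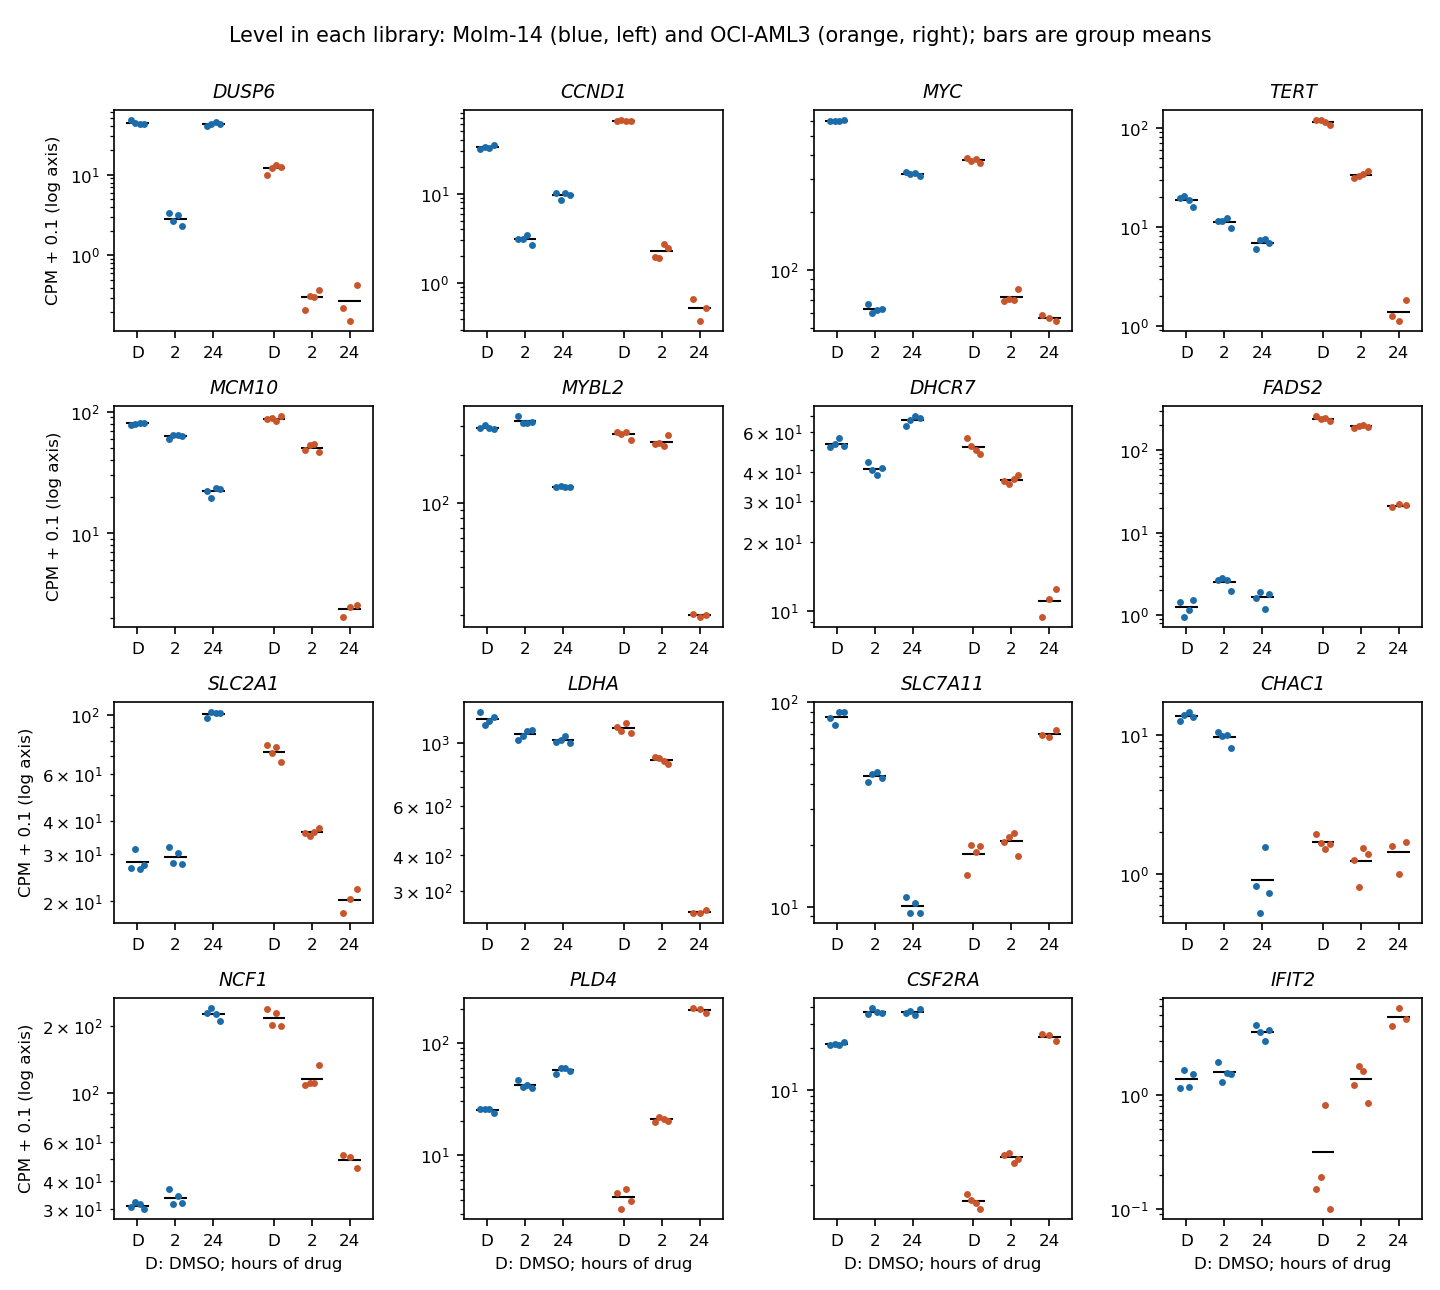
CPM plus 0.1 on a log axis for 16 genes in every library, Molm-14 in blue and OCI-AML3 in orange, with DMSO (D), 2 h and 24 h of drug from left to right and a bar at each group mean. DUSP6 in Molm-14 is near 42 CPM in DMSO and at 24 h, whereas the 3 OCI-AML3 libraries at 24 h reach at most 0.332 CPM.

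MYC and many genes that build ribosomes were lower in OCI-AML3. MYC (chr8:127735434-127741434, plus strand), a transcription factor that drives cell growth, stood at 597 to 604 CPM in Molm-14 DMSO and at 326, 316, 323 and 310 CPM at 24 h, and went from 362 to 382 CPM in OCI-AML3 to 58.3, 56 and 54.1 CPM. It had a fold change of -0.91 in Molm-14, fell by 2.74 in OCI-AML3 and differed by -1.82 ± 0.06 (adjusted p = 9.7e-21). At 2 h the order was the other way, with a fall of 3.26 in Molm-14 and 2.37 in OCI-AML3 and a difference of 0.89 ± 0.06. Its level thus recovered in part in Molm-14 and stayed down in OCI-AML3, and the later change was -2.71 ± 0.06 (adjusted p = 2.1e-24). Of 12 genes of MYC and its partners, MYC alone was called.

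Of 57 ribosome biogenesis genes, 26 were lower in OCI-AML3 and none higher (median -0.88, with medians of -1.14 in Molm-14 and -2.12 in OCI-AML3). NOLC1, a nucleolar assembly factor, stood at 185 to 194 CPM in Molm-14 at 24 h, from 451 to 457 CPM, and at 34.7, 41.2 and 34 CPM in OCI-AML3, from 267 to 291 CPM (difference -1.67 ± 0.06, adjusted p = 1.2e-19). URB2 (-1.88 ± 0.09) and the helicase DDX21 (-1.73 ± 0.08) had the largest differences of the list. By contrast, none of 58 cytosolic ribosomal protein genes was called, and their differences ran from -0.73 to 0.13. TERT (chr5:1253147-1295069, minus strand), the catalytic subunit of telomerase, fell from 15.9 to 20.4 CPM in Molm-14 DMSO to 5.94 to 7.41 CPM, and from 107 to 119 CPM in OCI-AML3 to 1.15, 1.02 and 1.71 CPM. Its difference of -4.96 ± 0.16 (adjusted p = 1.8e-21) came with a reversal of the order of the lines. DKC1, which binds the telomerase RNA and modifies ribosomal RNA, was the only other called gene of 14 telomere genes (-1.23 ± 0.06).

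The cell cycle programme went down further in OCI-AML3. Of 58 DNA replication and S phase genes, 38 were lower in OCI-AML3 and none higher (median -1.34, with medians of -1.17 in Molm-14 and -2.56 in OCI-AML3). Of 62 genes of G2 and M phase, 41 were lower and none higher (median -1.13). MCM10 (chr10:13161554-13211104, plus strand), which helps start DNA unwinding at origins, stood at 78.5 to 81.5 CPM in Molm-14 DMSO and 22.3, 19.6, 23.5 and 23.3 CPM at 24 h. In OCI-AML3 it fell from 83.3 to 91.9 CPM to 1.95, 2.4 and 2.49 CPM. The DMSO levels of the lines were thus alike, and at 24 h no OCI-AML3 library came near a Molm-14 library (difference -3.36 ± 0.10, adjusted p = 1.6e-22). CDC6, a licensing factor of replication origins, gave 20.7 to 23.8 CPM in Molm-14 and 3.4, 4.23 and 4.14 CPM in OCI-AML3 from DMSO levels of 79.4 to 86 CPM in both lines (difference -2.50 ± 0.09).

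MYBL2 (chr20:43667019-43716496, plus strand), a transcription factor of late cell cycle genes, fell to 125 to 126 CPM in Molm-14 and to 20.2, 19.3 and 19.8 CPM in OCI-AML3, from 288 to 303 and 245 to 278 CPM (difference -2.52 ± 0.07, adjusted p = 1.5e-23). CDC45 (-3.0 ± 0.08), GINS2 (-2.55 ± 0.09) and E2F1 (-2.40 ± 0.10) were lower as well, as were the mitotic genes SPC24 (-1.75 ± 0.08), MAD2L1 (-1.71 ± 0.09) and MKI67 (-1.60 ± 0.08). MKI67, the proliferation marker Ki-67, had a fold change of -0.45 in Molm-14 and fell by 2.05 in OCI-AML3. Genes of the Fanconi pathway and homologous recombination gave 17 lower of 33 (median -1.01), among them BRCA1 (-1.43 ± 0.07). Nucleotide and folate synthesis gave 11 lower of 26 (median -0.72), led by NME1 (-2.27 ± 0.08) and CTPS1 (-2.09 ± 0.06). At 2 h the medians of the replication and the G2 and M lists differed between the lines by -0.09 and 0.13, and the later change was lower for 37 of 58 and 47 of 62 genes.

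Promoters of the replication list and of the G2 and M list were searched for known cell cycle elements. Whether these elements have a part in the differences was not tested. In a RefSeq table of promoters (GRCh38.p14, 250 bases before to 50 after the start of a gene), 48 of the 58 replication genes were matched, and 23 of them (47.9%) held the E2F motif TTTCCCGC or TTTGGCGC on either strand, against 477 of 10440 matched genes (4.6%). Of the 32 matched replication genes called lower, 17 held it. The cell cycle homology region motif (CHR, TTTGAA or TTCGAA) was in 42 of 53 matched G2 and M genes (79.2%), in 27 of the 37 called lower, and in 15.6% of all. Capitals mark the motif in GINS2 (chr16:85688905-85689204, minus strand; the reverse complement of the first E2F form), CDC6 (chr17:40287629-40287928, plus strand) and MAD2L1 (chr4:120066799-120067098, minus strand; CHR).
GINS2: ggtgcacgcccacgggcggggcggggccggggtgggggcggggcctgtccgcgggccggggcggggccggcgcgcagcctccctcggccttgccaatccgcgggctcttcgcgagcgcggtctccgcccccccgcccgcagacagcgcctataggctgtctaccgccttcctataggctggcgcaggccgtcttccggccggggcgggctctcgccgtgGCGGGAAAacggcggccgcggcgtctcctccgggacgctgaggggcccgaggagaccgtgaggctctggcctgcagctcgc
CDC6: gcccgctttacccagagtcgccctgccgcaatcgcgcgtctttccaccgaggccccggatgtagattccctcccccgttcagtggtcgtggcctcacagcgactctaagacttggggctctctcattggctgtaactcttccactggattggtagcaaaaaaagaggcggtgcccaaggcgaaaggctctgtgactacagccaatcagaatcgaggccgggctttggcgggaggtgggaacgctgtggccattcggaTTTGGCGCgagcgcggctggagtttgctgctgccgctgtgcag
MAD2L1: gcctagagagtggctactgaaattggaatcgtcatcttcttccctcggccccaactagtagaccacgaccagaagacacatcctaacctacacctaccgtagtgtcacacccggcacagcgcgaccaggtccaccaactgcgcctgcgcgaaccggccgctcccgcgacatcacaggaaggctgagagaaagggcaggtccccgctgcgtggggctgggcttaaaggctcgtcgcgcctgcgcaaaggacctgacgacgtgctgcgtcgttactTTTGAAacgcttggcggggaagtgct
These are the called members holding each motif with large differences. A match of letters is a description and was not tested as a binding site. The E-box CACGTG, which MYC can bind, was in 23 of 49 matched ribosome biogenesis genes (46.9%), in 11 of the 21 called, and in 12.6% of all genes.

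Lipid synthesis parted the lines. Of 25 genes of cholesterol synthesis and uptake, 16 were lower in OCI-AML3 and none higher (median -1.40). The median fold change was 0.50 in Molm-14, where 3 rose and none fell (11.4% of all genes rose and 6.57% fell). The count of 3 was thus near the share over all genes. In OCI-AML3 the median was -0.88, and 11 fell and 1 rose (17.1% of all genes fell and 18.4% rose). DHCR7 (chr11:71428193-71452868, minus strand), the last enzyme of cholesterol synthesis, went from 51.3 to 56.3 CPM to 63.6, 67.6, 69.9 and 68.4 CPM in Molm-14. It went from 47.7 to 56 CPM to 9.31, 11.1 and 12.4 CPM in OCI-AML3. Its DMSO ranges overlapped between the lines, and its 24 h ranges were far apart (difference -2.57 ± 0.10, adjusted p = 6.3e-20). HMGCS1, an early enzyme of the pathway, stood at 153 to 157 CPM in Molm-14 and 48.8, 49.1 and 52.5 CPM in OCI-AML3 at 24 h, from 98.4 to 114 CPM in DMSO in both (difference -1.69 ± 0.07). MSMO1 and LSS rose in Molm-14 by 1.19 and 1.32 and had fold changes of -0.88 and -0.20 in OCI-AML3. SREBF2, the master regulator of this pathway, differed by -1.35 ± 0.06, with 0.92 in Molm-14 and -0.43 in OCI-AML3.

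Fatty acid synthesis genes gave 10 lower and 2 higher of 14 (median -1.19). The desaturase SCD had a fold change of 0.45 in Molm-14 and fell by 2.84 in OCI-AML3 (difference -3.29 ± 0.06, adjusted p = 2e-27). FADS2 fell in OCI-AML3 from 226 to 258 CPM to 20.4, 22.1 and 21.3 CPM (difference -3.87 ± 0.20), and was low in Molm-14, at 0.846 to 1.43 CPM in DMSO and 1.09 to 1.82 CPM at 24 h. FASN (-1.89 ± 0.10) and SREBF1 (-1.83 ± 0.08) were lower too. At 2 h none of the 25 cholesterol genes differed by the call rule, and the later change was lower for 15 of them. ABCA1, which exports cholesterol, rose in both lines and more in OCI-AML3 (1.34 ± 0.15).

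Glucose metabolism showed the same order. Of 28 genes of glycolysis and glucose uptake, 15 were lower in OCI-AML3 and 1 higher (median -1.08), with a median fold change of 0.03 in Molm-14 and -0.76 in OCI-AML3. SLC2A1 (chr1:42925375-42959176, minus strand), the glucose transporter GLUT1, rose in Molm-14 from 26.6, 31.4, 26.3 and 27.2 CPM to 97.2, 102, 102 and 101 CPM. In OCI-AML3 it fell from 77, 71.5, 75.7 and 66.4 CPM to 18, 20.3 and 22.2 CPM. The line with the higher level in DMSO had the lower level at 24 h, with no overlap at either point (difference -3.69 ± 0.09, adjusted p = 8.7e-24). ENO2 (chr12:6913745-6923698, plus strand), an enolase, rose in Molm-14 from 1.33 to 1.95 CPM to 12.5 to 15 CPM and in OCI-AML3 stood at 4.33 to 5.77 CPM in DMSO and 4.31 to 5.07 CPM at 24 h, ranges that overlap (difference -3.05 ± 0.20).

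Lactate dehydrogenase A, LDHA (chr11:18394388-18408425, plus strand), stood at 1163 to 1287 CPM in Molm-14 DMSO and at 1009, 1028, 1061 and 1002 CPM at 24 h. In OCI-AML3 it fell from 1090 to 1175 CPM to 250, 250 and 257 CPM (difference -1.91 ± 0.06, adjusted p = 1.7e-22). The aldolase ALDOC rose in Molm-14 and fell in OCI-AML3 (-2.83 ± 0.09). The transporter SLC2A3 rose in Molm-14 and was at -0.25 in OCI-AML3 (difference -1.91 ± 0.06), and PGK1 fell in OCI-AML3 by 1.90 beside -0.21 in Molm-14. PFKFB3, which makes an activator of phosphofructokinase, was the 1 higher gene (1.45 ± 0.07).

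**Figure D4:**
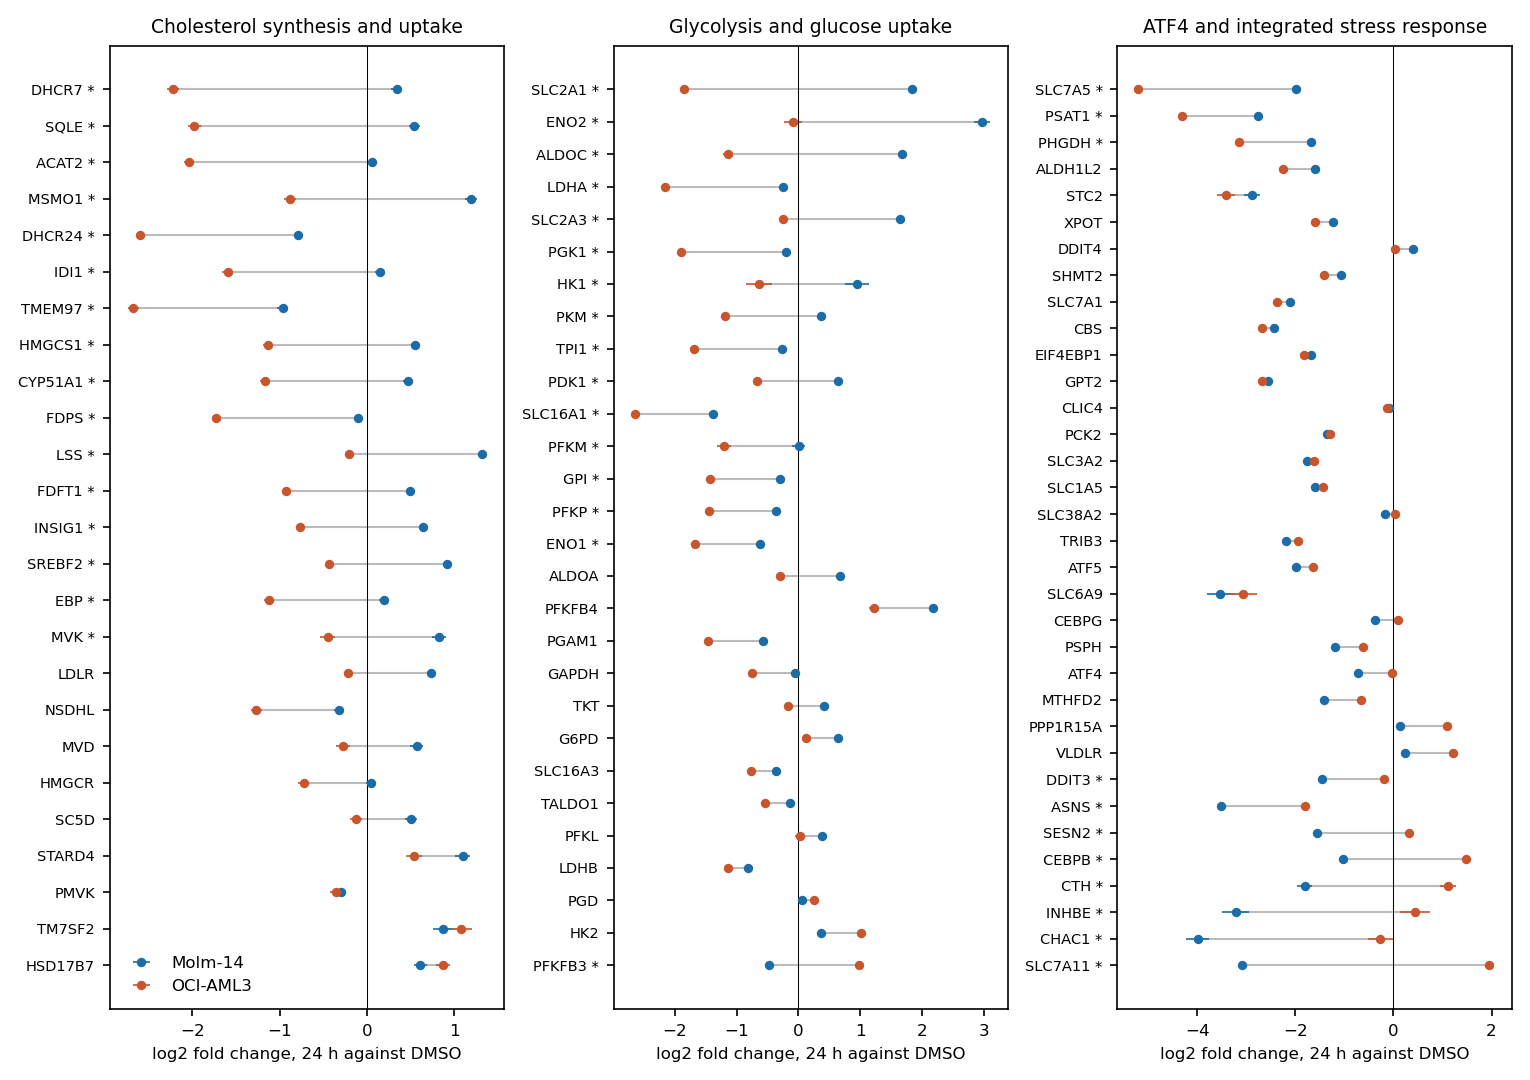
Log2 fold change after 24 h against DMSO (horizontal axis, with SE) for each gene of cholesterol synthesis, glycolysis and the ATF4 list in Molm-14 (blue) and OCI-AML3 (orange), ordered by the difference; an asterisk marks a gene called in the difference. In the first panel 16 of 25 genes are called with the orange point to the left, and the third panel ends with SLC7A11 at -3.08 in Molm-14 and 1.96 in OCI-AML3.

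The core of the hypoxia response element, ACGTG, was in the promoters of 15 of 25 matched glycolysis genes (60.0%), of 10 of the 14 called, and in 32.4% of 10440 matched genes. This motif was chosen after the values were seen, and it overlaps the E-box CACGTG. The promoters of ENO2 (chr12:6914330-6914629, plus strand) and ALDOC (chr17:28576846-28577145, minus strand), from the same RefSeq table, are shown with the core on either strand in capitals. Among the called glycolysis genes holding the core, these had the largest absolute differences.
ENO2: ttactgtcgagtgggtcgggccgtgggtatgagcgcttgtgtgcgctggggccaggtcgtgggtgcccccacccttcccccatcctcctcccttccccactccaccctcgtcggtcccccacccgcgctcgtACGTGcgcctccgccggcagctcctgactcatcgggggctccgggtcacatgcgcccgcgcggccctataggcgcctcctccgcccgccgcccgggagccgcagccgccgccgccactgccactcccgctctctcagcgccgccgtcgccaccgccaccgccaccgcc
ALDOC: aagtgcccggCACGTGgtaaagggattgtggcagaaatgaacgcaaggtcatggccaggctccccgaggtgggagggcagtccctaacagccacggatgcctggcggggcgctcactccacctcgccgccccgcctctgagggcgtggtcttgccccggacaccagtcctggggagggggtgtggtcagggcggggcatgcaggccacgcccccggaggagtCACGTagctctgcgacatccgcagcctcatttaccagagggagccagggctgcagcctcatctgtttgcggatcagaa
In ALDOC the first run of capitals is also an E-box.

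Targets of ATF4, the transcription factor of the integrated stress response, moved in both directions between the lines. Of 34 genes, 8 were higher (8.09% of all genes) and 3 lower (9.75% of all) in OCI-AML3, with a median of 0.23. The lower count was thus near the share over all genes. Against DMSO, however, 27 fell in Molm-14 (6.57% of all genes) and 18 in OCI-AML3 (17.1% of all). SLC7A11 (chr4:138164097-138242349, minus strand), the cystine transporter of glutathione synthesis, fell in Molm-14 from 84, 77.1, 89.1 and 89.3 CPM to 11.1, 9.21, 10.3 and 9.25 CPM. It rose in OCI-AML3 from 14.2, 19.8, 18.4 and 19.7 CPM to 69.3, 67.3 and 72.9 CPM. The lines exchanged places, and the difference of 5.04 ± 0.13 had an adjusted p of 1.9e-23. CHAC1, which degrades glutathione, fell in Molm-14 from 12.4 to 14.3 CPM to 0.427 to 1.47 CPM, and its OCI-AML3 libraries overlapped at 1.43 to 1.84 CPM in DMSO and 0.908 to 1.6 CPM at 24 h (difference 3.73 ± 0.34, adjusted p = 7.7e-11).

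CTH, an enzyme of cysteine synthesis (2.93 ± 0.23), and CEBPB, a transcription factor (2.52 ± 0.10), likewise fell in Molm-14 and rose in OCI-AML3. The asparagine synthetase ASNS fell in both lines and less in OCI-AML3 (1.70 ± 0.10). SESN2 and DDIT3 fell in Molm-14 and were at 0.32 and -0.19 in OCI-AML3 (differences 1.87 and 1.27). Lower in OCI-AML3 were 3 genes. SLC7A5 (chr16:87830023-87869488, minus strand), the transporter of large neutral amino acids, fell in Molm-14 from 904 to 1041 CPM to 229 to 248 CPM, and in OCI-AML3 from 483 to 522 CPM to 13.7, 14.2 and 12.8 CPM (difference -3.21 ± 0.07, adjusted p = 9.5e-25). PSAT1 (-1.55 ± 0.06) and PHGDH (-1.48 ± 0.07), enzymes of serine synthesis, also fell in both lines and further in OCI-AML3. The composite ATF4 motif TGATGNAA was in 6 of 27 matched promoters of the list (22.2%), in 2 of the 9 called, and in 2.8% of all.

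Genes of monocytes and macrophages were called in both directions. Of 43 measured, 9 were higher (8.09% of all genes) and 15 lower (9.75% of all) in OCI-AML3, with a median of -0.37. Against DMSO 23 rose in Molm-14 (11.4% of all genes) and 24 in OCI-AML3 (18.4% of all). LYZ (chr12:69348341-69354234, plus strand), lysozyme, was at 89.6 to 102 CPM in Molm-14 DMSO and 102 to 110 CPM at 24 h. In OCI-AML3 it rose from 559, 571, 566 and 599 CPM to 3584, 3818 and 3976 CPM (difference 2.61 ± 0.06, adjusted p = 5.5e-24), with no rise at 2 h (572 to 586 CPM in 3 libraries and 556 CPM in the fourth). PLD4 (chr14:104924713-104937790, plus strand), an endolysosomal exonuclease, rose in Molm-14 from 23.7 to 25.6 CPM to 52.5 to 59.5 CPM and in OCI-AML3 from 3.19 to 4.91 CPM to 203, 200 and 186 CPM (difference 4.39 ± 0.12, adjusted p = 7.8e-23). The lectin receptor CLEC12A (3.95 ± 0.39) and the calgranulin S100A8 (2.27 ± 0.14) were higher as well. KLF4, a transcription factor of monocytes, rose in OCI-AML3 and was at 0.03 in Molm-14 (2.16 ± 0.14).

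Other monocyte genes went the opposite way. NCF1 (chr7:74773962-74789315, plus strand), the p47phox subunit of the phagocyte oxidase, rose in Molm-14 from 29.8 to 31.9 CPM to 229, 240, 225 and 211 CPM and fell in OCI-AML3 from 198 to 239 CPM to 52.5, 51.2 and 45.8 CPM (difference -4.98 ± 0.10, adjusted p = 2.1e-26). Its near-identical copies NCF1B (-5.18 ± 0.17) and NCF1C (-5.33 ± 0.10) moved with it, and how reads were shared among the 3 is uncertain. CD14, the lipopolysaccharide co-receptor, fell in OCI-AML3 from 2.45 to 3.98 CPM to 0.0557, 0.427 and 0.166 CPM and was below 0.5 CPM in every Molm-14 library (difference -3.39 ± 0.51). LSP1 (-3.14 ± 0.17) and the Fc receptor FCGR2B (-2.50 ± 0.11) rose in both lines, more in Molm-14. CSF1R, the receptor for M-CSF, rose alike: by 3.64 in Molm-14 and 3.71 in OCI-AML3, with a difference of 0.07 ± 0.08. The call of VCAN on this list rests on OCI-AML3 alone, since Molm-14 had at most 1 read over a group.

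Some interferon response genes rose further in OCI-AML3. Of 39, 9 were higher (8.09% of all genes) and 1 lower (9.75% of all), with a median of 0.49. Against DMSO 16 rose in Molm-14 (11.4% of all genes) and 21 in OCI-AML3 (18.4% of all), with medians of 0.69 and 1.29. STAT2, a subunit of the interferon-activated factor ISGF3, rose from 38.8 ± 2.06 to 123.2 ± 7.17 CPM in Molm-14 (SD, n = 4 and n = 4) and from 29.8 ± 1.16 to 336.8 ± 10.4 CPM in OCI-AML3 (n = 4 and n = 3), a difference of 1.83 ± 0.07 (adjusted p = 4.6e-19). SAMD9L (1.85 ± 0.14) and OAS1 (1.82 ± 0.14) were higher, and ISG20 was lower (-1.21 ± 0.41). The interferon-stimulated response element (ISRE) was in 19 of 29 matched promoters of the list (65.5%), against 4.1% of all, and in 3 of the 8 matched called ones.

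Of 6 measured genes of the MHC class II list, 3 were higher in OCI-AML3 (median 1.13). CIITA (chr16:10866222-10943021, plus strand), their master activator, rose in Molm-14 from 5.05 to 5.77 CPM to 11.3 to 12.8 CPM and in OCI-AML3 from 4.25 to 5.39 CPM to 24.6, 26.5 and 23.6 CPM (difference 1.26 ± 0.15, adjusted p = 3e-08). HLA-DRA, an MHC class II alpha chain, had 2 reads over the 4 DMSO libraries of OCI-AML3 and 701 over the 3 drug libraries, a ratio of CPM of 515 (95% interval 142 to 4263, counting error only). HLA-DRB1 went from 2 to 277 reads there (ratio 204, interval 55.8 to 1690). In Molm-14 HLA-DRA stood at 0.521 to 0.787 CPM in DMSO and 2.24 to 3.04 CPM at 24 h. Among 19 genes of MHC class I and peptide loading, CALR, a chaperone, was the only called gene (lower).

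Of 23 G1 cyclins, cyclin-dependent kinases and their inhibitors, 3 were higher (8.09% of all genes) and 4 lower (9.75% of all) in OCI-AML3 (median -0.20). Besides CCND1, the lower genes were the S phase cyclins CCNE1 (-1.68 ± 0.11) and CCNE2 (-1.02 ± 0.16), which fell in both lines, and the inhibitor CDKN2C (-1.25 ± 0.07), which fell in OCI-AML3. The higher genes were CDKN2B, which had 0 reads in Molm-14, CCND2 (1.56 ± 0.33), which was called in neither line, and CDKN1C. CDKN1C (chr11:2883213-2885773, minus strand), the inhibitor p57, rose in Molm-14 from 0 to 0.325 CPM to 3.61 to 5.18 CPM and in OCI-AML3 from 0.139 to 0.296 CPM to 33.6, 32.6 and 32.5 CPM. At 2 h it stood at 4.82 to 6.11 CPM in Molm-14 and 5.12 to 6.12 CPM in OCI-AML3, so the lines were alike then and apart at 24 h (24 h difference 2.01 ± 0.40, adjusted p = 8.8e-05, which became 0.058 with voom). The pro-apoptotic gene BMF rose in both, to 164 to 176 CPM in Molm-14 and 125 to 128 CPM in OCI-AML3 from 13.1 to 16 and 4.87 to 6.34 CPM. Its difference of 1.02 ± 0.09 lay at the size limit, and the call ended on the log2(CPM + 1) scale (0.89), without replicate 2 of Molm-14 DMSO (0.98) and without replicate 2 or 3 of OCI-AML3 DMSO (0.99 each). Among 16 genes of the BCL2 family 1 was higher and 2 lower, counts near the shares over all genes (8.09% and 9.75%). BMF was the 1 higher gene. The lower ones were BCL2A1, an inhibitor of apoptosis that went from 266 to 3 reads in OCI-AML3 (60.3-fold lower, interval 20.4 to 294), and PMAIP1, which encodes the pro-apoptotic NOXA (-1.31 ± 0.12).

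BCL2, the target of venetoclax, differed by -0.65 ± 0.08, MCL1 by -0.29 ± 0.06 and BCL2L1 by -0.18 ± 0.11, none of them called. BCL2L11, which encodes BIM, rose in OCI-AML3 and differed by 0.50 ± 0.19. Of 30 FOXO target and quiescence genes, 5 were higher (8.09% of all genes) and 3 lower (9.75% of all), with a median of 0.25. The lower count was thus near the share over all genes. Of the higher members, PDK4 had 0 reads in both Molm-14 groups. KLHL24 (2.06 ± 0.09) and TXNIP (0.55 ± 0.05, not called) rose in both lines. The lower members were TSC22D3 (-1.58 ± 0.08), which rose in both lines, ARRDC3 (-1.40 ± 0.13), which rose in Molm-14, and TRIB1 (-1.08 ± 0.12), called in neither line. KLF2, a transcription factor of the immediate early list, which had 3 higher and 8 lower members of 24, rose by 4.69 in Molm-14 and 1.31 in OCI-AML3 (-3.38 ± 0.13). CDKN1B, the inhibitor p27, differed by 0.14 ± 0.07.

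Several large programmes had few genes called in the difference between the lines. None of the 13 mitochondrially encoded transcripts was called (median 0.23), and 2 of 42 respiratory chain genes, 3 of 40 mitochondrial ribosome genes and 1 of 20 aminoacyl-tRNA synthetases were lower in OCI-AML3. The last count, VARS1, became 2 without replicate 4 of Molm-14 DMSO, replicate 2 of Molm-14 at 24 h, replicate 2 or 4 of OCI-AML3 DMSO, or replicate 1 or 4 of OCI-AML3 at 24 h. For the proteasome it was 2 of 31 (median -0.41), and 1 without replicate 4 of either 24 h group. Differences were below 0 in 30 of 31 proteasome, 37 of 40 mitochondrial ribosome and 33 of 42 respiratory chain genes. Against DMSO 24, 23 and 11 genes of these lists fell in OCI-AML3 (17.1% of all genes). In Molm-14 6, 9 and 2 fell (6.57% of all). Chaperone genes stood apart from these lists with 17 lower of 37 (median -0.83). They include HSPA8 (-1.39) and HSP90AA1 (-1.14), which fell in both lines and further in OCI-AML3. Lysosome and autophagy genes gave 4 higher of 44 (median 0.22), near the 8.09% of all genes that were higher. The 4 include SQSTM1 (1.36 ± 0.06) and GABARAPL1 (1.64 ± 0.13). The lysosomal CLEAR motif TCACGTGA, which contains the E-box, was in 5 of 31 matched promoters of that list (16.1%), in 0 of the 3 matched called genes, and in 2.3% of all.

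**Figure D5:**
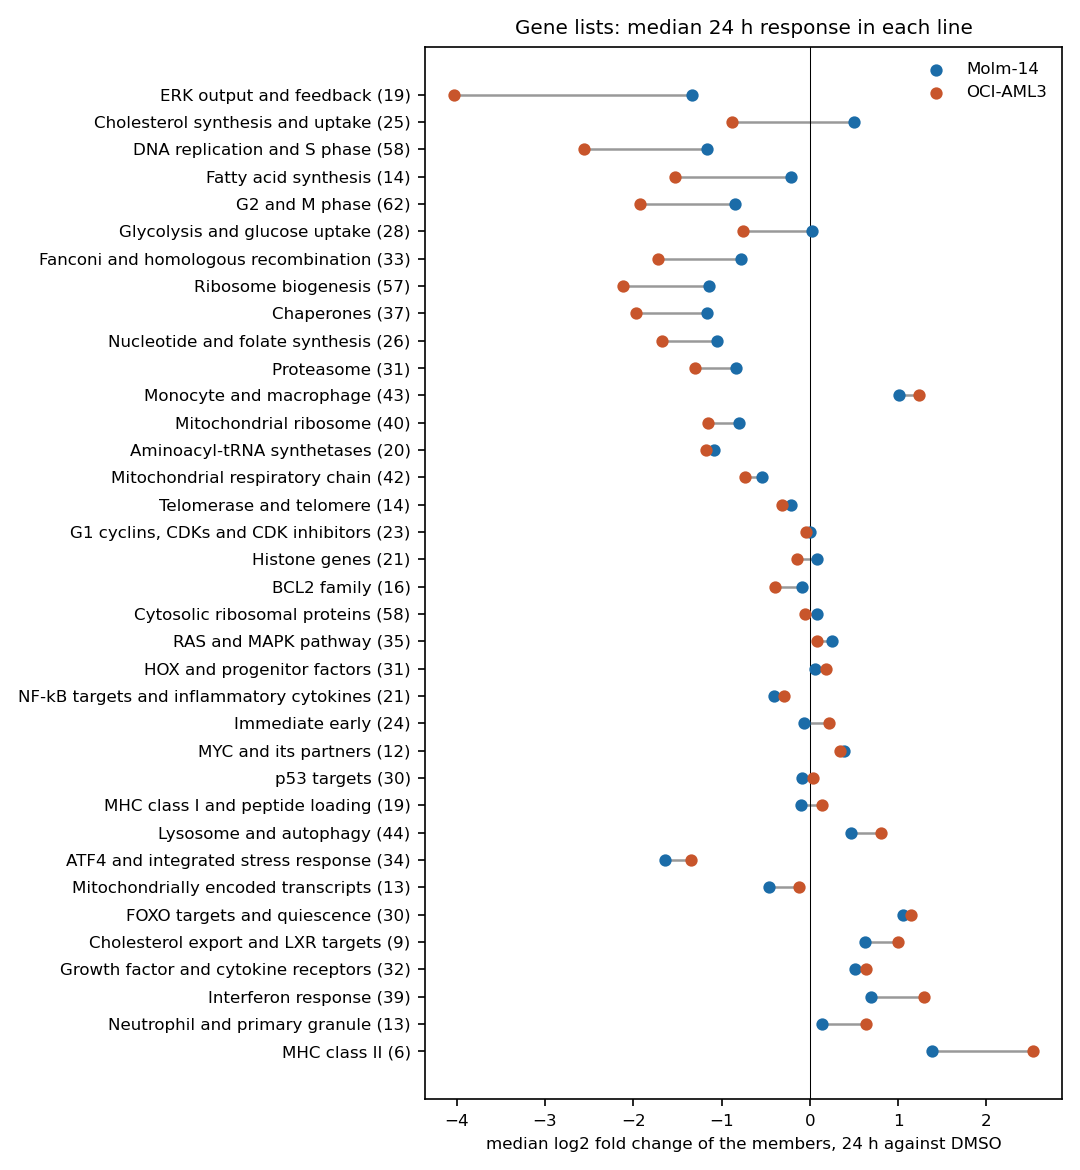
Median log2 fold change of each gene list after 24 h in Molm-14 (blue) and OCI-AML3 (orange), with the number of measured genes in parentheses, ordered by the median difference. ERK output and feedback is at the top with -1.34 and -4.03, and cytosolic ribosomal proteins lie near 0 in both lines.

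Outside these lists, the naming rule also brought forward genes with a 24 h response in one line. At 24 h, in OCI-AML3 alone, SAMD11 (3.96 ± 0.19) and SLC24A4, a cation exchanger (4.12 ± 0.30), rose, and TMEM121B (-4.27 ± 0.12) and the endothelin-converting enzyme ECE1 (-3.49 ± 0.13) fell. SAMD11 had risen in Molm-14 at 2 h, by 1.48, from a mean of 17.5 to 49.3 CPM, and stood at 16.3 CPM at 24 h. The metallothionein MT2A (3.40 ± 0.09) rose by 2.58 in OCI-AML3 and had a fold change of -0.82 in Molm-14 (adjusted p = 1e-13, under the size limit). HSD11B1, which regenerates cortisol, fell in both lines, by 1.67 in Molm-14 and 5.67 in OCI-AML3. In Molm-14 alone SERPINF1 (-3.32 ± 0.21), the creatine transporter SLC6A8 (-2.96 ± 0.07) and the metalloproteinase MMP2 (-2.77 ± 0.09) rose, with fold changes in OCI-AML3 of -0.18, 0.09 and -0.03. TTYH2 (-2.77 ± 0.12) and the sialyltransferase ST3GAL5 (-2.87 ± 0.19) rose in Molm-14 and fell in OCI-AML3. MMP2 stood at 8.11 ± 0.499 CPM in Molm-14 DMSO and 54.6 ± 0.945 at 24 h (SD, n = 4 each), so that its rise brought Molm-14 closer to OCI-AML3, which stayed at 129.4 ± 8.49 and 126.5 ± 1.63 CPM. Levels differed by the same rule between the lines in 30.2% of all genes in DMSO and 35.7% at 24 h. Counted over all 2325 called genes, 872 (37.5%) were at least 1 log2 apart at both points with the same line higher, 759 (32.6%) were less than 1 log2 apart in DMSO and at least 1 apart at 24 h, 324 (13.9%) were apart in DMSO and less than 1 apart at 24 h, 325 were under 1 apart at both, and 45 (1.9%) changed order with at least 1 log2 between the lines at both points.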

How the data were processed

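RNA abundance was measured by poly(A) RNA sequencing. Per the submitters' processing notes, the tools named were Trimmomatic 0.36, STAR 2.7.8a, RSEM 1.3.3, MultiQC 1.28, edgeR 3.24.3 and limma 3.38.3, with human genome build GRCh38 (hg38). The authors deposited log2 CPM values with a prior count added, as their lowest value (-3.2554, a prior of 1.961 reads at mean library size) shows. CPM printed here has that prior removed. Effective library sizes came from the spacing of low values, and among values of at most 20 reads 76.29 to 82.67% were whole to within 0.05.

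Group means were fitted to the deposited log2 values of all 23 libraries with limma 3.58.1 in R 4.3.3 (trend and robust empirical Bayes), and the difference between the lines was a contrast. P-values were adjusted by Benjamini-Hochberg over 13033 genes. The same script was tested on simulated data. Promoter windows were matched by symbol for 10440 genes. Gene coordinates are those of GENCODE v29.

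The comparison, its members and the gene lists were chosen with earlier results of these data known. Named genes were, with at least 5 CPM in the highest and 0.5 CPM in the lowest of the 4 group means, the 15 largest called differences in each direction, 8 genes called in opposite directions in each orientation and 6 genes in each direction with a change under 0.25 in either line; further, up to 4 called members of each list by adjusted p, and a fixed set of pathway genes. Genes outside this rule, and the hypoxia motif, were chosen after their values were seen. Alternatives tried were other scalings, log2(CPM + 1), a higher minimum level, no trend or robust step, limma's voom on read equivalents, a replicate term, fewer libraries and each library left out.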

Additional observations from a re-analysis of the deposited data

Results flagged for a closer look

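The difference between the lines in the 24 h response was itself tested as an interaction, and 2325 genes passed, of which 30 rose in Molm-14 and fell in OCI-AML3 and 10 fell in Molm-14 and rose in OCI-AML3.

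Single libraries stood apart from the others of their group in 7 of 90 groups of 4 over 30 genes, and chance alone flags about 1 group in 20. ETV4 was at 3.23 CPM in Molm-14 24 h replicate 1, against 4.81 to 5.08 in the others. AXL was at 3.83 CPM in Molm-14 24 h replicate 4, against 3.11 to 3.15. PLD4 was at 23.7 CPM in Molm-14 DMSO replicate 4, against 25.5 to 25.6. In OCI-AML3 DMSO, CCND1 was at 65.8 CPM in replicate 2 (others 63.9 to 64.2), EGR1 at 42.1 CPM and BMF at 6.34 CPM in replicate 1 (others 40.7 to 40.9 and 4.87 to 5.1), and IFIT2 at 0.717 CPM in replicate 3 (others 0 to 0.0926).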

How the results depend on the processing

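With each of the 15 libraries left out in turn, the 24 h difference called 2271 to 2350 genes (1019 to 1072 higher, 1252 to 1293 lower), and the change of the difference from 2 to 24 h 1824 to 1883. The 24 h difference called 8527 genes with no minimum size and 545 with a difference of at least 2. It called 2310 genes with library totals, 1184 higher and 1126 lower, so that the larger share turned from lower (1271 against 1054) to higher and the median over all genes from -0.0494 to 0.0243, 1948 on the log2(CPM + 1) scale and 2279 with voom. The 2 h difference fell to 470 genes, 134 of them higher, on the log2(CPM + 1) scale. Same-numbered libraries were not treated as paired, since not every pair correlated above 0.1: 7 of 21 did (median 0.042), against 6 of 63 pairs of different numbers (median -0.006), and 7 of 15 libraries correlated best with their own number, a hint from the data and not the design. The fit with a replicate block called 2304 genes, 2285 of them shared. Of 203 called genes among the 217 named, 23 lost the call under at least 1 of 23 alternatives and none reversed; the cause was not tested. Genes under 4 reads in a group, 262 of those called, are limited by depth.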

Other observations

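The following lists were drawn up after the values were seen, so their counts describe these data only. Over all genes, 8.09% were higher and 9.75% lower in OCI-AML3. Of 22 hypoxia-inducible genes, 10 were lower and 2 higher in OCI-AML3 (median difference -0.79). The higher count was near the share over all genes, and 1 of the 2, EGLN3, had 0 reads in both Molm-14 groups. Against DMSO 11 rose in Molm-14 (11.4% of all genes) and 8 in OCI-AML3 (18.4% of all). NDRG1 rose in Molm-14 from 13.5 to 241.6 CPM and in OCI-AML3 from 158.6 to 403.7 CPM (group means; difference -2.80 ± 0.07, limma adjusted p = 6.6e-24). HILPDA, a lipid droplet protein (-2.89), and the repressor BHLHE40 (-2.53) rose in Molm-14 and had fold changes of -0.89 and -0.53 in OCI-AML3. VEGFA, the vascular growth factor, went the other way (1.81), with -0.19 in Molm-14 and a rise of 1.62 in OCI-AML3.

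Of 11 STAT5 target genes, 4 were lower and 2 higher in OCI-AML3 (median -0.76). The kinase PIM2 rose in Molm-14 by 1.01 and fell in OCI-AML3 by 1.09, and CISH, a feedback inhibitor of cytokine receptors, rose in Molm-14 by 1.17 and was at -0.48 in OCI-AML3. SOCS2, another feedback inhibitor, rose by 2.07 in OCI-AML3 and was at 0.20 in Molm-14. Of 6 metallothioneins, 2 were higher and 1 lower.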
